A study of Mus musculus with 42 samples.

Results

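Fibronectin (Fn1) and 7 integrin subunits that take part in its receptors (Itga4, Itga5, Itga9, Itgav, Itgb1, Itgb3 and Itgb5) were followed at gene level through all 42 libraries of a study of flow in the mouse carotid artery. These 8 genes, picked by name from the 21674 genes of the count table, all passed the filter on low counts in every test. Partial ligation of the left carotid artery lowered its flow, the contralateral artery carried high flow, and RNA was flushed from the intima, the inner lining of the artery. Untreated male C57BL/6J mice aged 6 to 7 weeks gave 3 pools of low-flow, 3 of high-flow and 3 of sham intima 48 hr after surgery, each pool made from 3 to 5 arteries and named a, b or c here. In sham arteries the suture was placed and left untied.

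In a second set of C57BL/6J mice, also at 48 hr, low-flow intima was collected after antibodies that deplete platelets (anti-GPIba) or Gr1-positive leukocytes (anti-Gr1, given 24 hr before ligation), after control IgG, and after liposomes loaded with clodronate, which deplete macrophages, or with PBS, and high-flow intima after IgG or PBS liposomes, with 2 pools per group. A further low-flow pool each after PBS and clodronate liposomes was sequenced with the untreated pools. The 7 day set came from mice of both sexes aged 2 to 7 months with floxed Rbfox2, the Rosa26-mTmG reporter and Cdh5(PAC)-CreERT2, whose Cre is expressed in endothelium (EC-KO), and from littermates without Cre (controls). It held 3 low-flow and 2 high-flow libraries of each genotype, named by the numbers 1, 4 and 5 of their table columns. Cultured cells were represented by 1 library per condition. They were a conditionally immortalized aortic endothelial line, which is a single line, kept 48 hr without additions, with 10% plasma, with macrophages plus platelets, or with all of these, together with sorted eGFP+ primary aortic endothelial cells after 5 days in culture and Rbfox2 control and EC-KO primary aortic endothelial cells after 7 days.

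Fibronectin is a large glycoprotein that circulates in plasma and is also laid down by vessel wall cells as a fibrillar matrix under endothelium exposed to disturbed flow. Integrins are pairs of an α and a β subunit that span the membrane and join such matrix to the actin cytoskeleton. Integrin α5β1 is the main receptor for fibronectin fibril assembly, αvβ3 and αvβ5 bind fibronectin and vitronectin, and α4β1 and α9β1 bind other parts of fibronectin, α4β1 also being the leukocyte receptor for VCAM-1. Because each α subunit needs its β partner, a transcript level does not give the number of receptors at the cell surface.

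The sites in Fn1 that these receptors read are shown because they set which subunit belongs to which part of the ligand. They lie on the minus strand of chromosome 1 of mm9, within the gene at chr1:71632094-71699774. They are printed from the coding strand, in the sense of the mRNA, with the codons of the recognised residues in capitals.
RGD site, read by α5β1 and the αv integrins: gtcactggcCGTGGGGACagtccagca
EIIIA site, read by α4β1 and α9β1: tcgagccctGAGGATGGAATCcgggagctt
LDV site, read by α4β1: ccagagatcTTGGATGTTccctccaca
The RGD codons are in exon 30 of the 46 exons of the longest annotated transcript, at chr1:71653311-71653337 with their flanks, and the LDV codons are in exon 40, at chr1:71644248-71644274 with theirs. Both are in 3 of 3 annotated coding transcripts that were searched. The EIIIA codons, at chr1:71650367-71650396 with their flanks, are in exon 33, an alternative cassette of 270 bases that 2 of the 3 transcripts hold. The counts analysed here sum all transcripts of Fn1, so the share of transcripts with EIIIA is not part of these values.

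The receptor genes lie on other chromosomes than Fn1, and only Itga4 and Itgav share one. In mm9 Itga4 spans chr2:79095583-79173280 and Itgav chr2:83564554-83647073, both on the plus strand, and Itga5 chr15:103174720-103197194 on the minus strand. Itga9 spans chr9:118515808-118810121, Itgb1 chr8:131209554-131257100, Itgb3 chr11:104469370-104531790 and Itgb5 chr16:33829751-33949239, all on the plus strand.

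Levels are given as FPKM, the count of a gene per kilobase of its effective length, scaled to the size of the library with the TMM factors of edgeR. Between 4064477 and 6794904 counts fell on genes in the 11 artery libraries with 100 bp reads (the untreated pools and the liposome pools sequenced with them), 10318685 to 19035957 in the 24 artery libraries with 150 bp reads, and 4989843 to 16394043 in the 7 cultured libraries. TMM factors of untreated low-flow pools a and b were 0.438 and 0.444, against 0.914 in low-flow pool c and 0.848 to 0.990 in the high-flow and sham pools, so calls of the members that change without this scaling or without pools a and b are named. The 11 endothelial markers checked were all detected in every artery group, at a summed share of counts of 0.339 to 0.505% in the untreated low-flow pools, 0.884 to 1.08% in the high-flow pools and 0.832 to 1.12% in the sham pools. In the cell line their share was 0.0370 to 0.0394%, against 0.308 to 0.594% in the primary cells.

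Per length, Itgb1 was the most abundant of the 8 transcripts in most artery libraries and Itga4 or Itgb3 the least abundant. Over the 24 artery libraries with 150 bp reads, Itgb1 ranged from 391 to 967 FPKM with a median of 526, Itga5 from 57.6 to 358 with a median of 115, and Fn1 from 19.97 to 138 with a median of 55.6. Itga9 had a median of 42.3 FPKM and the widest range but for Itgb3, 7.18 to 118, and Itgb5 a median of 30.3 with a range of 14.6 to 68.2. Itgav ranged from 4.71 to 38.9 FPKM around a median of 11.5. Itgb3 had a median of 3.51 FPKM (0.822 to 20.3) and Itga4 a median of 1.25 FPKM (0.477 to 2.69), so that their order does not hold in each library. Counts behind these levels were high for most genes, but fell to 54 for Itga4 and 53 for Itgb3 in single libraries of this set.

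Artery levels were not compared between read lengths, because low-flow pools with the same liposomes differed between them. Itgb1 was 3.44-fold and Itgb5 5.59-fold higher in the 150 bp PBS-liposome pools than in the 100 bp pool, and 3.61-fold and 4.59-fold higher after clodronate. Fn1 was at 0.645 and 0.675 of its 100 bp level in the same comparisons. Read length, run and mice differed together, so these cannot be told apart.

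**Figure D1:**
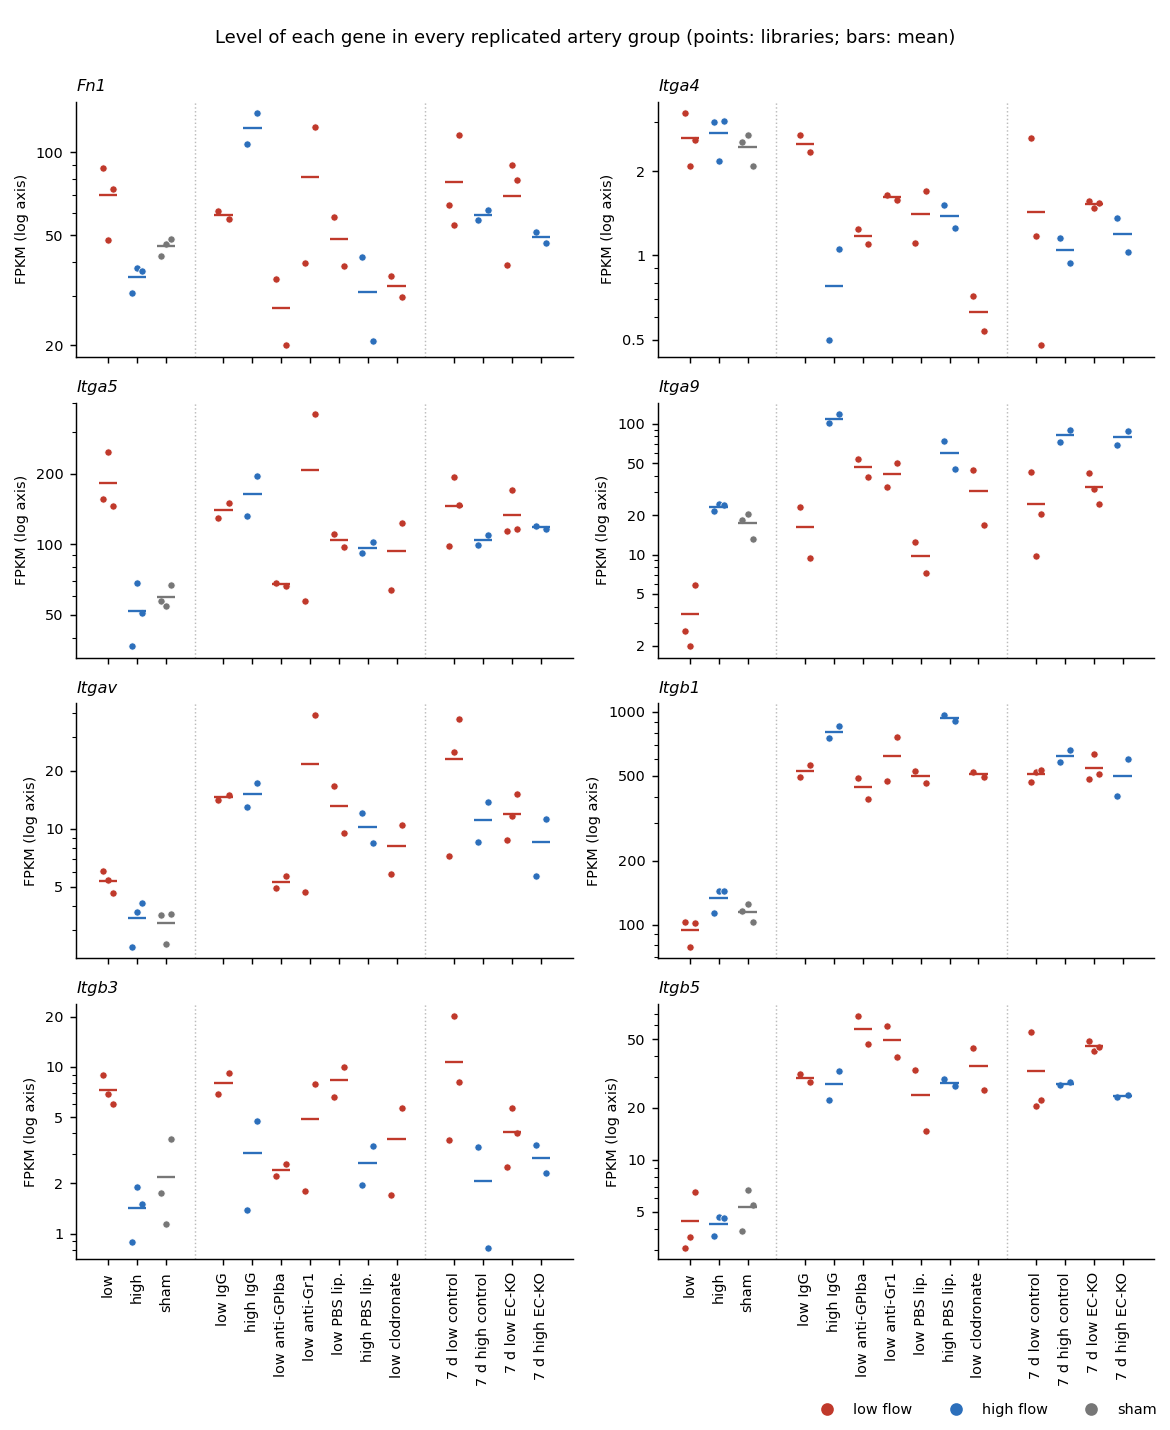
Each panel plots 1 gene, with FPKM on a log axis, points for single libraries and bars for group means; colours mark low flow, high flow and sham, and dotted lines divide the untreated 48 hr pools, the depletion set and the 7 day set. Itga9 lies lower at low flow than at high flow of the same treatment or genotype, and Itgb1 and Itgb5 lie at other levels in the untreated pools than in the rest.

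At 48 hr in untreated mice, transcripts of the ligand and of α5, αv and β3 were higher at low flow than at high flow and that of α9 was lower, while α4, β1 and β5 did not pass the test. These 5 of 8 members passed an adjusted p under 0.05 by edgeR, where 46.2% of the 11236 genes tested did, 23.6% as higher and 22.6% as lower. Groups did not overlap for 6 members and for 58% of genes. Against sham 4 members passed, where 40.3% of genes did, and 4 did not overlap, where 56.1% of genes did not. With library totals in place of TMM scaling, calls fell to 4 members and 36.7% of genes against high flow and to 2 members and 30.1% of genes against sham. Without pools a and b, where the 1 low-flow pool left is assumed to vary like the other group, 4 members and 22.4% of genes passed against high flow, and 0 members and 0 of 12187 genes (0%) against sham by edgeR, where 3110 genes had an unadjusted p under 0.05. Fn1 had 87.5, 48.1 and 73.7 FPKM in low-flow pools a, b and c, 30.9, 38.2 and 37.0 in the high-flow pools and 42.0, 46.6 and 48.6 in the sham pools. Each low-flow pool was above each high-flow pool, with pool b within the range of the sham pools. Expressed as a log2 fold-change with its standard error (SE), low over high flow was 1.01 (SE 0.27, adjusted p = 0.0112) and low flow over sham 0.57 (SE 0.26, adjusted p = 0.110), which did not pass. Scaled by library totals, the change over high flow was 0.40 and no longer passed. Pools a, b and c then had 38.3, 21.4 and 67.4 FPKM and the high-flow pools 26.2 to 35.3, so that pool b fell below them. Low-flow pool c alone was 1.14 above the high-flow pools on the log2 scale, with no spread of its own to test against.

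Itga5, the α partner in the classical fibronectin receptor, had 156, 248 and 146 FPKM in the low-flow pools, 36.8, 68.5 and 50.7 in the high-flow pools and 57.4, 54.7 and 67.3 in the sham pools. All 3 low-flow pools were above all 6 others. It was 3.60-fold higher than at high flow (log2 fold-change 1.85, SE 0.33, adjusted p = 0.00107, edgeR) and 3.00-fold higher than in sham (1.58, SE 0.29, adjusted p = 0.0044). The call against high flow held under all 12 alternatives, and that against sham was lost with library totals, at 0.84, and without pools a and b, at 1.29.

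Itga9, which binds the EIIIA segment and tenascin-C, went the other way. It had 2.60, 2.00 and 5.85 FPKM at low flow, from 53, 27 and 209 counts, against 21.7, 24.3 and 23.8 at high flow and 18.5, 20.2 and 13.1 in sham pools. Each low-flow pool was below each of the others. Its level was 6.22-fold lower than at high flow (log2 fold-change −2.64, SE 0.34, adjusted p = 0.000128, edgeR) and 4.86-fold lower than in sham (−2.28, SE 0.38, adjusted p = 0.00329). Pool c alone gave −1.91 against high flow and −1.55 against sham, and the latter did not pass.

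Itgav, the α subunit shared by the vitronectin receptors, had 6.03, 5.43 and 4.67 FPKM at low flow, 2.45, 3.73 and 4.13 at high flow and 3.58, 2.52 and 3.62 in sham pools. The groups did not overlap, yet the gap between low-flow pool c and high-flow pool c was small. Over high flow the change was 1.58-fold (log2 fold-change 0.66, SE 0.23, adjusted p = 0.0358, edgeR) and over sham 1.61-fold (0.69, SE 0.20, adjusted p = 0.0254). With library totals both were lost and turned slightly negative, at −0.01 each. Both were also lost when pool a or b of either group was left out, and without low-flow pools a and b together, at 0.52 and 0.53. Itga4 had 3.22, 2.09 and 2.60 FPKM at low flow and 3.00, 2.18 and 3.02 at high flow, with a log2 fold-change of −0.01.

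Of the β subunits, Itgb3 had the largest change. It had 9.002, 6.84 and 5.998 FPKM at low flow, from 151, 76 and 176 counts, 0.885, 1.89 and 1.51 at high flow, from 18, 60 and 36 counts, and 1.75, 1.15 and 3.68 in sham pools. Low-flow pools were above all others, and sham pool c was the nearest to them. It was 5.04-fold higher than at high flow (log2 fold-change 2.33, SE 0.28, adjusted p = 7.92e-05, edgeR) and 3.18-fold higher than in sham (1.67, SE 0.38, adjusted p = 0.0102). The call against sham was lost with library totals, at 0.97, and without pools a and b, at 1.43. Itgb3 is also the β subunit of the platelet fibrinogen receptor. The 12 platelet markers summed to 0.0543 to 0.0713% of counts in low-flow and 0.05 to 0.0654% in high-flow pools, with 1 higher and 1 lower of the 7 that were tested. Their part in Itgb3 was not tested.

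Itgb1, the common partner of α4, α5 and α9, had 103, 78.5 and 102 FPKM at low flow and 113, 144 and 144 at high flow. The groups did not overlap, but the change (log2 fold-change −0.47, SE 0.24, adjusted p = 0.138, edgeR) did not pass. With library totals it was −1.07 and passed, as did −0.94 against sham. Itgb5 had 3.11, 3.56 and 6.55 FPKM at low flow, from as few as 22 counts, and 3.62, 4.64 and 4.59 at high flow, with a log2 fold-change of 0.12. Here too pool c lay above pools a and b.

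The change of scaling moved the median log2 fold-change of all genes tested from −0.07 to −0.69 against high flow and from −0.04 to −0.71 against sham. Calls over all genes moved from 2652 higher and 2543 lower against high flow to 1044 higher and 3084 lower. Relative to the median of all genes in the comparison with high flow, Fn1, Itga5, Itgav and Itgb3 stayed above it and Itga9 and Itgb1 below it under both scalings. Ratios of members within a library need no scaling. Itga5 over Itga9 was 60.2, 124 and 24.9 in the low-flow pools, 1.70, 2.82 and 2.13 in the high-flow pools and 3.11, 2.71 and 5.15 in the sham pools. Itgb3 over Itgb5 was 2.90, 1.92 and 0.92 at low flow, 0.24, 0.41 and 0.33 at high flow and 0.45, 0.17 and 0.67 in sham pools. In both ratios no low-flow pool overlapped with the other groups.

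**Figure D2:**
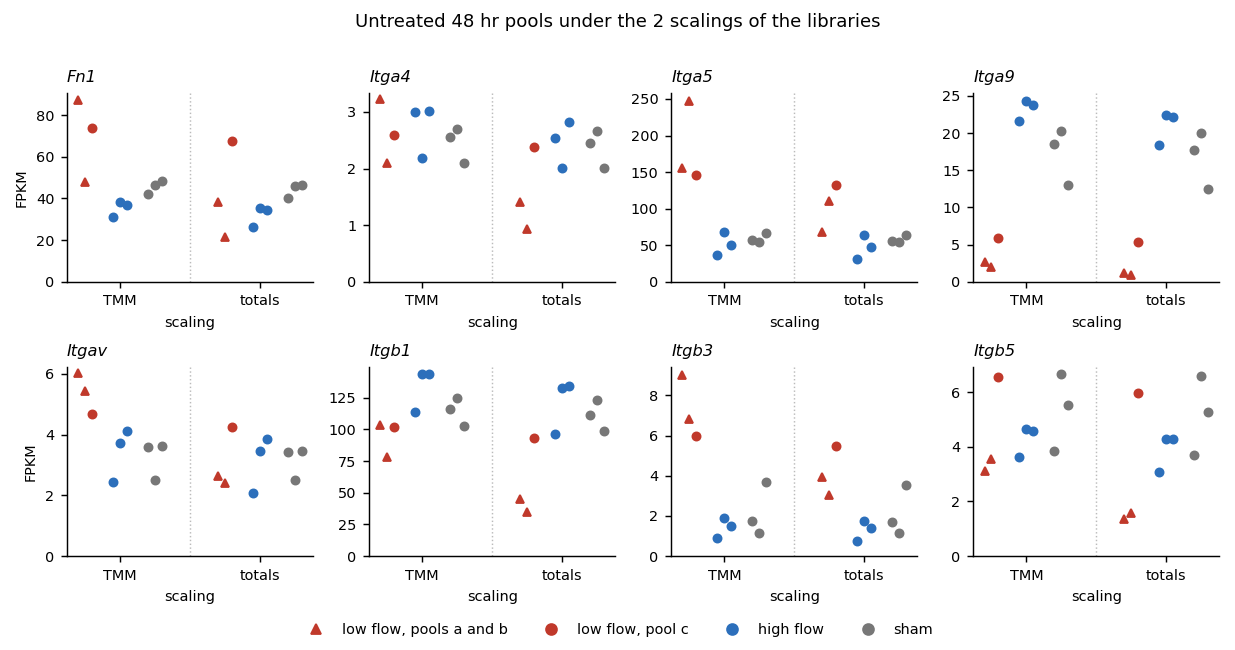
FPKM on a linear axis in the untreated 48 hr pools, with TMM-scaled totals on the left of each panel and library totals on the right; triangles are low-flow pools a and b. Under library totals pools a and b fall below pool c for each of the 8 genes, Fn1 and Itgav of low and high flow overlap, and Itga5, Itga9 and Itgb3 stay apart.

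Markers of other cells moved with the low-flow pools. The share of 14 macrophage markers was 0.221 to 0.335% at low flow against 0.00927 to 0.0207% at high flow, that of 9 neutrophil markers 0.0474 to 0.0835% against 0.000793 to 0.00177%, that of 8 smooth muscle markers 0.233 to 0.432% against 0.0557 to 0.0654%, that of 9 fibroblast markers 0.0128 to 0.0662% against 0.157 to 0.198%, and that of 8 fat cell markers 0.00397 to 0.00761% against 0.0338 to 0.336%. Of those tested 10 of 12 macrophage and 7 of 7 neutrophil markers were higher, 3 of 7 smooth muscle markers were higher and 1 lower, and 4 of 9 fibroblast and 6 of 6 fat cell markers were lower. Their part in the changes of the members was not tested, and in RNA of whole intima fewer cells of a type and less RNA per cell cannot be told apart.

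High flow and sham pools were compared to see whether the contralateral artery differs from an unligated one. None of the 8 members passed by edgeR, nor did any of the 11030 genes tested (0%). At an unadjusted p under 0.05 there were 868 genes (7.87%) and 1 member, Fn1, while DESeq2 called 0 members and 101 genes (0.832%). Fn1 was lower in each high-flow pool than in each sham pool (log2 fold-change −0.42, SE 0.17, adjusted p = 0.545, edgeR), and Itga9 was higher in each (0.38, SE 0.18), 2 members without overlap beside 13.5% of genes. The largest difference was that of Itgb3 (−0.67, SE 0.44), whose groups overlapped.

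Genes that act with these 8 were taken from lists of related genes. Of 19 other integrin subunits 12 could be tested, of which 7 were higher than at high flow and 1 was lower, with a median log2 fold-change of 2.80 against −0.07 over all genes tested. Among the higher were Itgb2 and Itgax, subunits of the leukocyte β2 integrins, at 63.3 ± 24.3 FPKM (SD, n = 3) against 1.34 ± 0.878 and at 4.90 ± 0.691 against 0.110 ± 0.0344, and Itga2, a collagen receptor subunit, at 2.40 ± 0.962 against 0.0193 ± 0.0334. Itgb4, the hemidesmosomal β subunit, was lower at 3.78 ± 0.398 FPKM against 14.3 ± 1.82. Itgam, which is in this list, is also in the macrophage marker list above.

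Of 18 further ligands of these receptors 10 were tested, 4 being higher and 1 lower, with a median of 0.52. Spp1, encoding osteopontin, was at 73.9 ± 9.10 FPKM (SD, n = 3) against 1.03 ± 1.54, Ctgf at 145 ± 80.2 against 9.29 ± 4.04 and Thbs1, encoding thrombospondin-1, at 540 ± 101 against 63.3 ± 25.2. Vwf was lower, at 38.7 ± 10.8 against 115 ± 4.48. Of 12 genes for partners and assembly factors of fibronectin matrix, 4 were higher and 4 lower with a median of 0.02. Tgfbi, Plaur and Anxa2 rose by 5.82, 2.46 and 1.40 on the log2 scale, and Sdc2, Tgm2 and Ltbp1 fell by 2.04, 1.27 and 1.23. With library totals Anxa2 was at 0.55 and did not pass.

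Of 25 integrin adaptors and kinases tested 5 were higher and 4 lower, with a median of −0.11. Apbb1ip, which encodes RIAM, and Parvg, the leukocyte parvin, rose by 4.10 and 3.64 on the log2 scale, and Fermt3, the kindlin of blood cells, rose by 0.89, which library totals reduced to 0.27. Lims2, encoding a PINCH protein, Tln2, encoding talin-2, and Tns1, encoding tensin-1, fell by 3.21, 2.46 and 1.69. The other 16 adaptors did not pass. Against sham the same lists gave 7 higher and 1 lower of 11 integrin subunits, 3 and 1 of 10 ligands, 4 and 3 of 12 matrix partners and 4 and 4 of 26 adaptors, with medians of 1.92, 0.34, 0.06 and −0.04 against −0.04 over all genes. The low-flow pools are shared by both comparisons. Between high flow and sham no gene of the lists passed.

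Low and high flow were next compared within the control treatments of the depletion set, where all low-flow pools were sequenced in an earlier run than all high-flow pools, so that flow and run cannot be told apart. With IgG, 2 of 8 members passed by edgeR, where 40.5% of 13401 genes did, and with PBS liposomes 2 of 8, where 35% did. Groups of 2 did not overlap for 5 members with IgG (74.1% of genes) and for 3 with PBS liposomes (75.3%). Itga9 was lower in both. It had 23.2 and 9.35 FPKM at low flow with IgG against 101 and 118 at high flow, and 12.5 and 7.18 at low flow with PBS liposomes against 74.0 and 45.3. No low-flow pool reached a high-flow pool. Its level was 6.47-fold lower with IgG (log2 fold-change −2.69, SE 0.54, adjusted p = 0.00376) and 5.82-fold lower with PBS liposomes (−2.54, SE 0.54, adjusted p = 0.00506), the latter being lost without low-flow PBS pool 2.

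The ligand lay on different sides of the high-flow level in both control treatments. Fn1 had 60.9 and 57.4 FPKM at low flow with IgG against 107 and 138 at high flow, and 58.3 and 38.6 at low flow with PBS liposomes against 41.6 and 20.7 at high flow. With IgG the low-flow pools were both below the high-flow pools, and with PBS liposomes the groups overlapped. Neither difference passed (log2 fold-change −0.99, SE 0.50, adjusted p = 0.132, and 0.70, SE 0.50, adjusted p = 0.298, edgeR), although with IgG it passed in a fit of those 2 groups alone (adjusted p = 0.0127). Their difference, a test added after the data were seen, was −1.69 (SE 0.71, adjusted p = 0.808, edgeR) and did not pass either.

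Itga4 had 2.69 and 2.34 FPKM at low flow with IgG, from 471 and 467 counts, against 0.497 and 1.06 at high flow, from 59 and 136. It was 3.36-fold higher (log2 fold-change 1.75, SE 0.38, adjusted p = 0.00556, edgeR), and passed under each of the 10 alternatives. With PBS liposomes Itga4 had 1.11 and 1.70 against 1.52 and 1.26 FPKM, which overlap, and a log2 fold-change of 0.09 (SE 0.37). The difference between both was 1.66 (SE 0.53, adjusted p = 0.668). By edgeR 0 of 13401 genes passed this test (0%), with 801 genes (5.98%) and 2 members, Fn1 and Itga4, at an unadjusted p under 0.05. By DESeq2 30 genes (0.213%) and 0 members passed.

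Itga5 and Itgav, which were higher at low flow in untreated pools, overlapped here. Itga5 had 129 and 149 FPKM at low flow with IgG against 131 and 196 at high flow, and 111 and 97.3 against 91.8 and 102 with PBS liposomes, with log2 fold-changes of −0.18 (SE 0.62) and 0.17 (0.62). For Itgav these were −0.01 (0.69) and 0.42 (0.69). The untreated pools and this set were not compared in a single test, since they differ in run and read length.

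Itgb3 lay higher in both low-flow groups, and whether it passed depended on the fit. It had 6.85 and 9.24 FPKM at low flow with IgG against 1.37 and 4.75 at high flow, and 6.62 and 9.98 against 1.95 and 3.36 with PBS liposomes. Neither pair of groups overlapped, and neither passed (log2 fold-change 1.45, SE 0.76, adjusted p = 0.145, and 1.71, SE 0.76, adjusted p = 0.102, edgeR). With replicate number as a block both passed (adjusted p = 0.0169 and 0.0156, edgeR), beside 43.4% of genes with IgG and 38.1% with PBS liposomes. With PBS liposomes Itgb3 also passed by DESeq2 (adjusted p = 0.0385), beside 40.6% of genes. In a fit of these 2 groups alone it passed as well (adjusted p = 0.0173, edgeR), beside 42.3%. Itgb1 had 529 and 465 FPKM at low flow with PBS liposomes against 967 and 907, which passed (log2 fold-change −0.85, SE 0.27, adjusted p = 0.032), but not when any of the 4 libraries was left out. With IgG it had 497 and 564 against 750 and 856, and did not pass (−0.54, SE 0.27, adjusted p = 0.130). Itgb5 overlapped in both.

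Endothelial markers summed to 0.427 to 0.565% of counts in low-flow and 1.77 to 1.79% in high-flow IgG pools, with 2 higher and 7 lower of 11, and to 0.373 to 0.399% and 0.959 to 1.31% in PBS-liposome pools. Macrophage markers stood at 0.231 to 0.252% against 0.0173 to 0.0459% with IgG and 0.140 to 0.227% against 0.0220 to 0.0298% with PBS liposomes. Smooth muscle markers stood at 0.439 to 0.475% against 0.0553 to 0.0806% and at 0.304 to 0.590% against 0.0516 to 0.0942%, and neutrophil markers at 0.0165 to 0.0471% against 0.000456 to 0.00442% and at 0.0125 to 0.0412% against 0.000767 to 0.00155%. Platelet markers stood at 0.128 to 0.131% at low flow against 0.0873 to 0.0891% with IgG, and at 0.129 to 0.137% against 0.0958 to 0.115% with PBS liposomes. With either treatment 1 of the 11 tested passed as higher and 1 as lower. Fibroblast markers stood at 0.0476 to 0.0595% against 0.170 to 0.171% with IgG and at 0.0275 to 0.0380% against 0.107 to 0.120% with PBS liposomes. Of the other integrin subunits 6 of 15 were higher and 3 lower with IgG, and 5 higher and 2 lower with PBS liposomes. Their median log2 fold-change was 1.19 and 0.95 against 0.07 and 0.06 over all genes, or 1.05 and −0.07 with subunits at 0 in a group set at their bound. Among the higher with IgG was Itgb7 at 10.1 ± 1.11 FPKM (SD, n = 2) against 0.427 ± 0.239. Itgax was at 4.29 ± 0.866 and listed at 0 in both high-flow pools, which makes it at least 70.8-fold higher against 3 counts per library. Of the 12 ligands tested 5 were higher and 2 lower with IgG and 4 and 1 with PBS liposomes, of the 12 matrix partners 3 and 4, then 3 and 6, and of the 26 adaptors 2 and 8, then 3 and 6. Tgfbi and Spp1 passed as higher at low flow with either control treatment, as in the untreated pools, and Tgm2 and Sdc2 as lower. What part the markers have in these values was not tested.

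**Figure D3:**
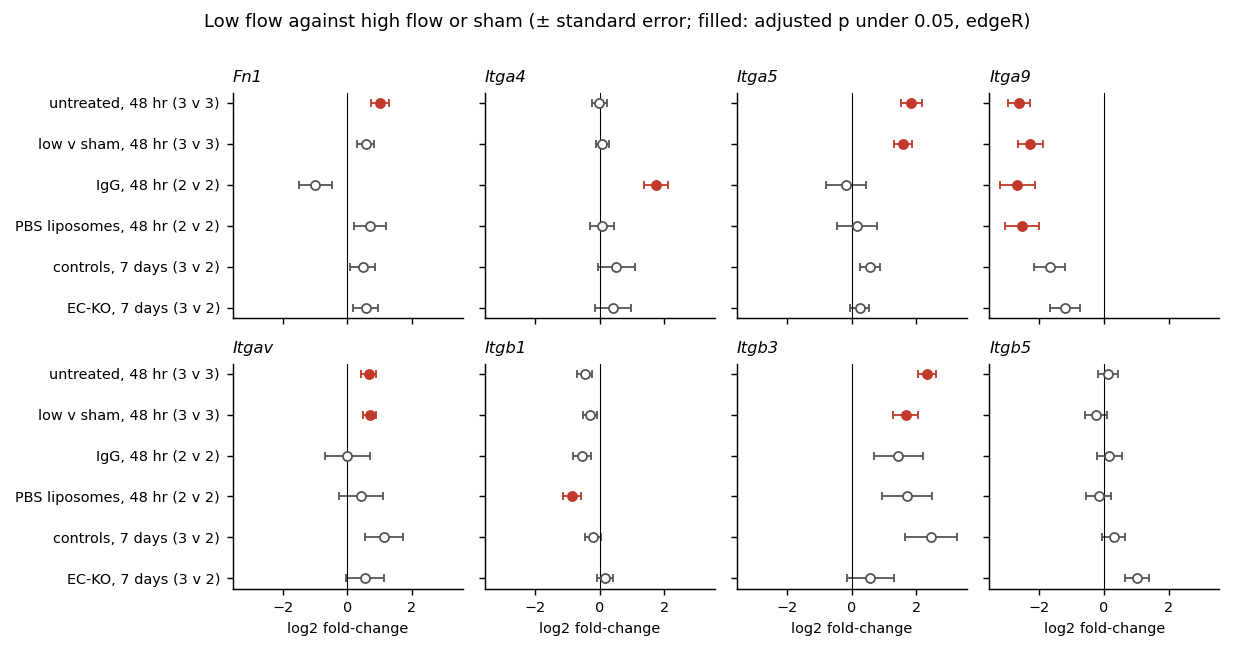
Log2 fold-change of each gene with its SE for low flow against high flow, or against sham in the second row of each panel, by treatment and time; filled red points passed an adjusted p under 0.05 by edgeR. Itga9 is negative in all 6 rows and passed in the 4 rows at 48 hr, Itgb3 is positive in all 6 and passed in the untreated rows, and Fn1 is negative with IgG alone.

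Depletion was compared at low flow with the matching control to see which changes persist without platelets, Gr1-positive cells or macrophages. None of the 8 members passed after anti-GPIba by edgeR, where 16.5% of 13401 genes did. These 2216 genes became 1 to 89 when any of the 4 libraries was left out. Of the members 5 had an unadjusted p under 0.05, beside 36.7% of genes. DESeq2 called 3 of them, Itga4, Itga9 and Itgb3, with 26.6% of genes, and a fit of the 2 groups alone called 7, with 34.5%. The groups did not overlap for any of the 8, which held for 74.3% of all genes tested, 6 members being lower and 2 higher.

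Fn1 had 34.7 and 19.97 FPKM after anti-GPIba against 60.9 and 57.4 with IgG (log2 fold-change −1.18, SE 0.51, adjusted p = 0.117, edgeR). Itga5 had 68.5 and 66.6 against 129 and 149 (−1.11, SE 0.62), and Itgav 4.95 and 5.66 against 14.2 and 14.98 (−1.52, SE 0.71). Both subunits were thus at a lower level in each depleted pool. Itga4 had 1.24 and 1.10 FPKM (−1.17, SE 0.38, adjusted p = 0.0538), just short of the threshold, and Itgb3 2.22 and 2.60 against 6.85 and 9.24 (−1.81, SE 0.76). Itga9 and Itgb5 lay on the other side. Itga9 had 53.8 and 39.2 FPKM against 23.2 and 9.35 (1.45, SE 0.52, adjusted p = 0.0705), and Itgb5 68.2 and 46.6 against 31.3 and 28.1 (0.89, SE 0.39, adjusted p = 0.123).

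Of the wider lists, 4 of 15 other integrin subunits passed as lower after anti-GPIba and none as higher, with a median of −1.13 against −0.04 over all genes. Itgb2 was at 2.55 ± 0.533 FPKM (SD, n = 2) against 37.5 ± 4.495 with IgG, and Itgam at 0.269 ± 0.331 against 13.4 ± 3.64. Of the ligands 2 of 12 were lower, Spp1 at 6.33 ± 5.63 against 152 ± 103 and Tnc, encoding tenascin-C, which had as few as 19 counts per IgG pool. Of the matrix partners 2 of 12 were higher and 3 lower, and of the adaptors 2 of 26 and 4. Tgm2, a transglutaminase that binds fibronectin, was higher at 418 ± 40.3 against 136 ± 49.1, and Tgfbi lower at 3.52 ± 1.21 against 68.8 ± 30.6. Macrophage markers summed to 0.0290 to 0.0394% after anti-GPIba against 0.231 to 0.252% with IgG, with 7 of 14 lower, neutrophil markers to 0.000419 to 0.00115% against 0.0165 to 0.0471%, with 7 of 9 lower, and endothelial markers to 1.00 to 1.03% against 0.427 to 0.565%. Smooth muscle markers stood at 0.0749 to 0.105% against 0.439 to 0.475%. Platelet markers summed to 0.175 to 0.178% against 0.128 to 0.131%, with Gp5, Gp6 and Treml1 at 0 in both depleted pools. The part of these markers in the levels of the members was not tested.

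After anti-Gr1 none of the 8 members passed and 0 of 13401 genes did by edgeR (0%). At an unadjusted p under 0.05 there were 2432 genes (18.1%) and 1 member, Itga9, and DESeq2 called 142 genes (1.24%) and 0 members. The 2 pools stood far apart. Fn1 had 39.8 FPKM in pool 1 and 123 in pool 2, Itga5 57.6 and 358, Itgav 4.71 and 38.9 and Itgb3 1.79 and 7.92, on both sides of the IgG levels for the first 3. Smooth muscle markers summed to 0.184% of counts in pool 1 and 0.626% in pool 2. Itga9 had 32.8 and 49.999 FPKM, above both IgG pools (log2 fold-change 1.31, SE 0.52, adjusted p = 0.249, edgeR). Endothelial markers summed to 0.766 to 0.936% after anti-Gr1 against 0.427 to 0.565% with IgG and neutrophil markers to 0.00251 to 0.00375% against 0.0165 to 0.0471%. Fibroblast markers summed to 0.114 to 0.127% after anti-Gr1 against 0.0476 to 0.0595% with IgG. The part of these markers was not tested.

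Clodronate liposomes likewise gave no call among the 8 against PBS liposomes, where 0.119% of genes passed by edgeR, with 2 members, Itga4 and Itga9, and 14.9% of genes at an unadjusted p under 0.05. DESeq2 called 1 member, Itga9, and 3.65% of genes. Itga9 had 44.0 and 16.7 FPKM after clodronate against 12.5 and 7.18 (log2 fold-change 1.56, SE 0.52, adjusted p = 0.244) and was at 2.10 in clodronate pool 1 alone, which passed beside 937 of 13997 genes on the assumption that this lone pool varies like the other groups. Clodronate pool 2 alone gave 0.73, with 0 of 13987 genes called by edgeR and 422 at an unadjusted p under 0.05. Itga4 had 0.718 and 0.535 FPKM, from 107 and 77 counts, against 1.11 and 1.70 (−1.23, SE 0.38, adjusted p = 0.226). In neither gene did the groups overlap, nor for Fn1 and Itgb3, 4 members beside 50.6% of genes. Fn1 had 35.6 and 29.9 against 58.3 and 38.6 (−0.62, SE 0.50) and Itgb3 1.71 and 5.71 against 6.62 and 9.98 (−1.21, SE 0.75). The macrophage share was 0.0296 to 0.0311% against 0.140 to 0.227%, the neutrophil share 0.00309 to 0.00383% against 0.0125 to 0.0412% and the endothelial share 0.581 to 0.922% against 0.373 to 0.399%, whose part was not tested. Of the lists, Itgb2 (−2.99) and Tgfbi (−3.26) passed as lower after clodronate, the latter not with library totals, and no gene of the lists passed after anti-Gr1.

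In the 100 bp set the same treatments had 1 pool each, and ratios carry a 95% interval of counting error only. Itgb3 after clodronate was at 0.397 (0.323 to 0.485) of its level after PBS liposomes, from 138 and 332 counts, and was the 1 member past 2-fold, as 12.2% of 11373 genes at 1 FPKM or more were. Fn1 was at 0.645 (0.609 to 0.684), Itga4 at 0.551 (0.412 to 0.731) and Itga9 at 1.67 (1.41 to 1.98). These differences compare 2 libraries and have no replicate check. Anti-GPIba, anti-Gr1 and the flow comparison with IgG share the low-flow IgG pools, and clodronate and the other flow comparison share the low-flow PBS pools.

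**Figure D4:**
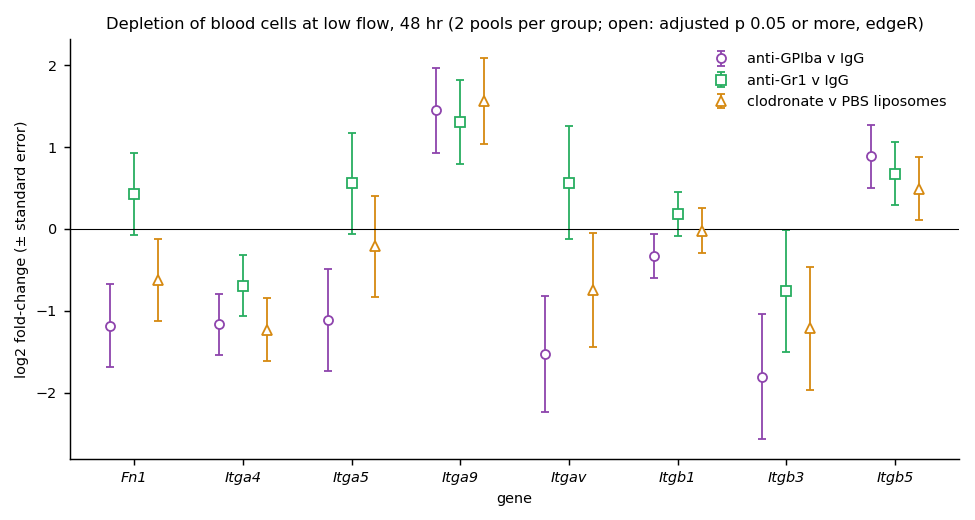
Log2 fold-change of each gene with its SE for anti-GPIba and anti-Gr1 against IgG and for clodronate against PBS liposomes, all at low flow with 2 pools per group; open points did not pass by edgeR, which holds for all 24. Itga9 and Itgb5 are above 0 and Itga4 and Itgb3 below 0 in each of the 3 comparisons.

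At 7 days the deleted gene was checked first. Rbfox2 had 0.946, 0.152 and 0.532 FPKM in low-flow EC-KO libraries 1, 4 and 5 against 2.79, 4.82 and 2.42 in controls, and 0.709 and 0.993 in high-flow EC-KO libraries against 3.43 and 3.78. Each EC-KO library was below each control of its side. Low-flow library 1 of each genotype came from an earlier run, and control library 5 and EC-KO library 4 from another run. Same-numbered low-flow libraries 4 and 5 thus differed in run between genotypes. Library 1 of low-flow controls, from the earlier run, stood apart with an endothelial share of 1.08% against 0.468% and 0.521% in libraries 4 and 5, and counts of calls are given without it where they change. Control library 4 had a neutrophil share of 0.0486%, against 0.00211% and 0.00257% in the other low-flow controls, and EC-KO library 4 a fibroblast share of 0.488%, against 0.111% and 0.127% in the other low-flow EC-KO libraries.

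None of the 8 members passed between EC-KO and control at low flow, nor did any of 13352 genes by edgeR (0%), with 880 genes (6.59%) and 0 members at an unadjusted p under 0.05. DESeq2 called 11 genes (0.0763%) and 0 members. Fn1 had 39.1, 89.98 and 78.9 FPKM in EC-KO against 64.2, 54.5 and 115 in controls, which overlap, the highest EC-KO level being in library 4 (log2 fold-change −0.17, SE 0.35). Itgb3 had 2.504, 5.67 and 4.04 against 3.65, 20.3 and 8.17 (−1.40, SE 0.66, adjusted p = 0.692, edgeR), and Itgav 8.77, 11.7 and 15.2 against 7.26, 25.1 and 37.1 (−0.97, SE 0.52). Control library 1 fell among the EC-KO libraries for Itgb3 and below all of them for Itgav. Without control library 1, Itgav at −1.40 and Itgb5 at 1.09 passed, 2 of 8 members beside 11.1% of all genes. Without library 1 of both genotypes Itgav, at −1.22, did not pass, which left Itgb5 at 1.03 (adjusted p = 0.0285, edgeR) beside 2.84% of all genes. Macrophage markers summed to 0.0375 to 0.180% in low-flow controls and 0.111 to 0.191% in EC-KO, endothelial markers to 0.743 to 0.927% in EC-KO, and their part was not tested. No gene of the lists passed between genotypes on either side.

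At high flow 0 members passed between genotypes, where 0.00749% of genes did by edgeR. At an unadjusted p under 0.05 there were 0 members and 2.19% of genes, and DESeq2 called 0 members and 27 genes (0.205%). Log2 fold-changes ran from −0.37 for Itgav to 0.47 for Itgb3. Fn1 had 51.2 and 46.9 FPKM in EC-KO and 56.8 and 61.8 in controls, the EC-KO libraries being lower by less than the spread the test allows (−0.26, SE 0.42). Such groups of 2 did not overlap for 3 members and 38.6% of genes. Itga9 had 69.2 and 88.3 against 72.4 and 89.9 (−0.02, SE 0.53).

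Low and high flow at 7 days gave 0 of 8 members called in controls, where 2.4% of genes were by edgeR, with 2 members, Itga9 and Itgb3, and 25% of genes at an unadjusted p under 0.05. DESeq2 called the same 2 members and 15.9% of genes. All high-flow libraries shared a run with low-flow control library 4 and EC-KO library 5. The other low-flow libraries came from other runs, so flow and run were partly mixed in both genotypes, also without library 1. Itga9 had 42.9, 9.69 and 20.4 FPKM at low flow in libraries 1, 4 and 5 against 72.4 and 89.9 at high flow (log2 fold-change −1.67, SE 0.48, adjusted p = 0.0752). Itgb3 had 3.65, 20.3 and 8.17 against 3.29 and 0.822 (2.46, SE 0.80, adjusted p = 0.0962). Low-flow libraries were on 1 side of the high-flow libraries for both genes and for Itgb1, 3 members beside 40.5% of genes. Library 1 was the closest to them for Itga9 and Itgb3. Without library 1, Itga5, Itga9, Itgav and Itgb3 passed, at 0.79, −2.35, 1.57 and 2.87, 4 of 8 members beside 29.4% of all genes. With replicate number as a block, Itga9, Itgav and Itgb3 passed, 3 of 8 members beside 22% of all genes. Endothelial markers summed to 0.468 to 1.08% at low flow against 1.51 to 1.60% at high flow in controls, smooth muscle markers to 0.131 to 0.179% against 0.0321 to 0.0412% and macrophage markers to 0.0375 to 0.180% against 0.0150 to 0.0214%. In EC-KO these shares were 0.743 to 0.927% against 1.64 to 1.67%, 0.112 to 0.170% against 0.0292 to 0.0341% and 0.111 to 0.191% against 0.0149 to 0.0167%. Platelet markers summed to 0.141 to 0.166% at low flow against 0.0836 to 0.0922% in controls, and to 0.184 to 0.195% against 0.113 to 0.114% in EC-KO. None of the 10 platelet markers tested passed in either genotype. The part of all these markers in the member levels was not tested.

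Fn1 at 7 days did not pass between flows in either genotype. Its low-flow control levels of 64.2, 54.5 and 115 FPKM enclosed the high-flow levels of 56.8 and 61.8 (log2 fold-change 0.47, SE 0.39, adjusted p = 0.481, edgeR), and in EC-KO it was 0.56 (SE 0.39). EC-KO libraries gave 0 of 8 calls, where 1.09% of genes passed by edgeR, and DESeq2 called 0 members and 7.2% of genes. Itga9 there had 41.7, 31.8 and 24.5 FPKM at low flow against 69.2 and 88.3 (−1.21, SE 0.48, adjusted p = 0.265). Itgb5 had 48.9, 42.8 and 45.0 against 23.1 and 23.8 (1.02, SE 0.37, adjusted p = 0.228). These 2 members had an unadjusted p under 0.05, beside 15.7% of genes. Both and Itga4 had groups that did not overlap, beside 43.9% of genes. With replicate number as a block Itga9 passed, 1 of 8 members beside 9.86% of all genes. Of the lists Ctgf passed as higher at low flow in both genotypes, at 353 ± 191 FPKM (SD, n = 3) in low-flow controls, Tgm2 as lower in controls and Itgax as higher in EC-KO.

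The test of whether the flow change differed between genotypes called no member and 0 of 13352 genes by edgeR (0%), with 538 genes (4.03%) and 0 members at an unadjusted p under 0.05 and 19 genes (0.141%) and 0 members by DESeq2. Without control library 1 it called 7 genes (0.0528%) and 0 members, with 2350 genes at an unadjusted p under 0.05. Its largest value was that of Itgb3, −1.88 (SE 1.03, adjusted p = 0.986). Within the libraries, Itga5 over Itga9 was 2.30, 19.9 and 7.19 in low-flow and 1.37 and 1.22 in high-flow controls, and 2.73, 5.36 and 4.73 in low-flow and 1.72 and 1.32 in high-flow EC-KO. Low-flow libraries were above high-flow libraries in both genotypes.

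Cultured cells had another make-up of these transcripts. In the cell line Fn1 was at 414 FPKM without additions, Itgb5 at 190 and Itgav at 31.0, while Itga9 was at 0.245 from 32 counts and Itga5 at 25.5. Itga5 was below Itgav in 3 of the 4 cell line libraries, where it was above Itgav in all 35 artery libraries. In primary cells Fn1 was at 822 FPKM in Rbfox2 controls and 903 in EC-KO cells, and Itga9 at 6.80 and 8.67. The eGFP+ cells, with Fn1 at 161 and Itga9 at 2.53, had 100 bp reads of another run and were not compared with these. No cultured library was tested against the artery.

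The cell line was given plasma, platelets together with macrophages, or all of these. Platelets and macrophages were not added singly in these libraries, so their effects cannot be told apart. Each condition is 1 library. Plasma left Fn1 at 0.429 (0.423 to 0.436) of its level without additions and Itgb3 at 2.38 (2.08 to 2.74), from 681 and 308 counts. These were the 2 members past 2-fold among those with at least 1 FPKM in either library, as were 9.89% of 11114 genes with that level. Itga9 was under it in every cell line library, with 6 counts with plasma and 32 without additions, and is not counted. Platelets and macrophages left Fn1 at 0.927 (0.917 to 0.938), with Itgb5 at 2.24 (2.19 to 2.29), Itga4 at 1.89 (1.64 to 2.19). Itgb5 was the 1 such member past 2-fold there, as were 8.32% of such genes, and Itga9 had 11 counts. With all additions Itgb3 was at 4.04 (3.57 to 4.59), Itga5 at 2.35 (2.23 to 2.47), Fn1 at 0.646 (0.638 to 0.654) and Itga4 at 0.493 (0.404 to 0.599). Of these Itgb3, Itga5 and Itga4 were past 2-fold, as were 18.3% of such genes, and Itga9 had 14 counts. Set against plasma alone, Fn1 with all additions was at 1.504 (1.48 to 1.53), Itgb3 at 1.69 (1.54 to 1.86), Itga5 at 2.47 (2.34 to 2.61) and Itga4 at 0.466 (0.382 to 0.566), so Fn1 was above its level with plasma and below that without additions.

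Transcripts of the added cells may be part of these libraries. The 14 macrophage markers were all detected with platelets and macrophages, at 0.0432% of counts, and with all additions, at 0.0329%, against 8 markers at 0.00617% without additions. With plasma alone, 9 markers were detected at 0.00874%. The 12 platelet markers summed to 0.0106% without additions, 0.0170% with platelets and macrophages, 0.0285% with plasma alone and 0.0351% with all additions. Of them 7, 9, 5 and 10 were detected in these libraries. Fibroblast markers summed to 0.137% of counts without additions, 0.171% after plasma, 0.245% after macrophages plus platelets and 0.199% when all were added, which is above the endothelial share in each of the 4 libraries. The part of these markers in the member levels was not tested.

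In primary cells Rbfox2 was at 0.600 FPKM in EC-KO and 8.58 in control cells. Itgb3 in EC-KO cells was at 3.00 (2.53 to 3.57) of control, from 419 and 198 counts, and Itgav at 0.537 (0.511 to 0.565). Itgb3 was the 1 member past 2-fold, as were 7.59% of 10999 genes. Fn1 was at 1.10 (1.09 to 1.11), Itga5 at 1.04 (0.998 to 1.08) and Itgb1 at 0.952 (0.938 to 0.967). Macrophage markers summed to 0.0173% of counts in EC-KO cells, with 5 of 14 detected, against 0.0507% in control cells, with 12, and fibroblast markers to 0.0305% against 0.0506%. Smooth muscle markers summed to 0.458% in EC-KO and 0.580% in control cells, where endothelial markers summed to 0.594% and 0.548%. The part of these markers was not tested. In the artery the same genotype comparison had Itgb3 at a log2 fold-change of −1.40 at low flow and 0.47 at high flow, neither of which passed.

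**Figure D5:**
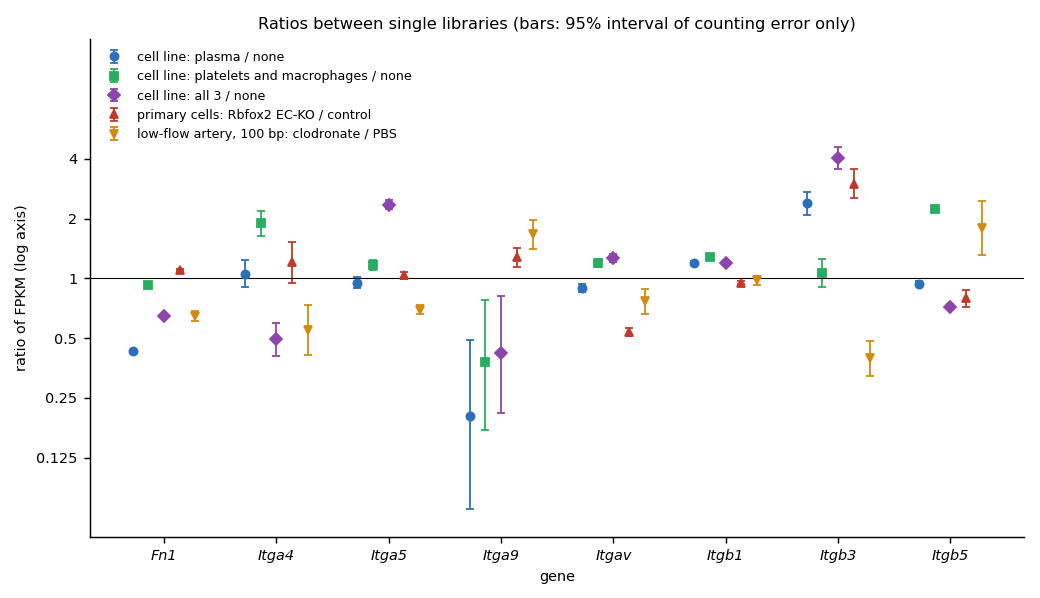
Ratio of FPKM between 2 single libraries for each gene, on a log axis, with 95% intervals of counting error; symbols mark the cell line additions, the primary cells and the 100 bp clodronate pool. Itgb3 is above 2 with plasma, with all additions and in Rbfox2 EC-KO cells and below 0.5 after clodronate, and Fn1 is below 1 in each cell line ratio over no additions.

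Across all 35 artery libraries the genes most like each member were found by Pearson's correlation of log2(FPKM + 1) over 11374 genes, as a description over libraries that share runs, controls and depth. Itga9 was most like Ltbp4 (r = 0.973), Zfp423 (0.971) and Cry2 (0.970), and Itgb1 most like Msrb3 (0.984) and Rac1 (0.983). Itgb5 was most like Ntn4 (0.967), Itgav like Tbc1d1 (0.913), Itgb3 like B3gnt5 (0.901) and Itga5 like Plekho2 (0.866). Fn1 and Itga4 had no such near match, their highest being Tnpo1 (0.756) and Rgs10 (0.812). Because levels of Itgb1 and Itgb5 differed between the 100 bp and 150 bp pools, the search was repeated, after the data were seen, in the 24 libraries with 150 bp reads. There Itgb1 was most like Lin7c (0.899) and Itgb5 most like Ephx2 (0.884), other genes and lower correlations than over all artery libraries. Itga9 was then most like Tmtc1 (0.987), Ptprb (0.984) and Pecam1 (0.983), of which the last 2 encode a receptor phosphatase and an adhesion molecule of endothelium. Fn1 was most like Nin (0.852), Col4a2 (0.845) and Col4a1 (0.842), the last 2 being basement membrane collagen chains.

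Among the members themselves, over the same 24 libraries, the highest correlation was that of Itga5 with Itgav (r = 0.830) and the lowest that of Itga9 with Itgb3 (r = −0.757). Fn1 had r = 0.701 with Itga5 and 0.689 with Itgav, and 0.241 with Itgb3. Itgb1 was not close to any of its α partners, with r = 0.389 for Itga5, 0.439 for Itga9 and −0.156 for Itga4.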

How the data were processed

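Libraries of polyadenylated RNA from pooled intimal flushes or cultured cells were sequenced with 100 or 150 bp reads. The authors aligned reads with STAR 2.5.1b (their methods give TopHat for the untreated 48 hr pools, a legend STAR) and estimated expected counts per gene with RSEM 1.2.15 on mm9. The deposited table holds these expected counts, not normalized, beside other deposited values such as gene length and effective length in bases. Of its 204 value columns 42 count columns, 1 per library, were used and 162 were not, among them second runs and RPKM. Of the 21675 entries 1 has no name and was left out of totals (0 to 0.117% of counts). Between 5.195 and 19.323% of values were not whole, and counts were rounded for testing. No 2 libraries shared more than 1.89% identical counts. Pools come from separate arteries, but the labels do not state separate experiments, so p-values measure the spread between these libraries, part of which may be technical.

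Groups were compared with the quasi-likelihood test of edgeR 4.0.16 in R 4.3.3 (default filter on low counts, TMM scaling, Benjamini-Hochberg adjustment over all genes tested, adjusted p under 0.05, two-sided), with the untreated groups fitted in pairs, the 7 depletion groups together and the 4 groups at 7 days together. FPKM were computed from counts, effective length and TMM-scaled totals of all 42 libraries. Intervals for single libraries are exact for counts at 95%. They cover counting error only, as PCR copies of a molecule are counted apart. Other values came from Python 3.11.15 with pandas 2.3.3, numpy 2.4.6 and scipy 1.17.1, and figures from matplotlib 3.10.9. The scripts were tested on simulated data first. Alternatives were DESeq2 1.42.0, no filter, library totals, size factors, other samples in the fit, each replicate left out and a block on replicate number. The 8 members were named in every comparison. From lists of related genes, at most 3 raised and 3 lowered genes with the largest log2 fold-change among those called with groups that do not overlap were named. For likeness, the 3 genes with the highest correlation among those with a mean of at least 1 FPKM were taken, of which the text gives fewer for some members, and 1 item is not reported here. Members and lists were chosen with earlier results of these data known. Replicate numbers (1 is in titles and column names, 4 and 5 only in column names) were taken to pair EC-KO and control libraries at low flow, where all 3 same-numbered pairs deviated together (correlation 0.461, 0.154 and 0.258). Site sequences in Fn1 were read from the mm9 genome through its annotation.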

Additional observations from a re-analysis of the deposited data

Results flagged for a closer look

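Fn1 was higher in each untreated low-flow pool than in each high-flow pool at 48 hr, with a log2 fold-change of 1.01, and lower in each low-flow pool than in each high-flow pool with IgG, with −0.99. All libraries thus moved in opposite directions in these 2 comparisons. With PBS liposomes, in the same set as IgG, the groups overlapped and the value was 0.70, which did not pass. The difference between IgG and PBS liposomes did not pass in the test given above. That between untreated and IgG pools was not tested, since the sets differ in read length and run, and within the IgG set flow and run cannot be told apart. The call in untreated pools was lost with library totals, and the value with IgG passed only when its 2 groups were fitted alone, at −1.001 (adjusted p = 0.0127, edgeR).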

How the results depend on the processing

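Over 1296 values of single members under the alternatives, 1229 kept their side of the threshold without a called sign change, 21 lost a call, 44 gained 1 and 2 turned over, both for Itgav with library totals, at −0.01073 against high flow and −0.01343 against sham in untreated pools. Of 13 member calls, 5 held under every alternative run: Itga5, Itga9 and Itgb3 between untreated low and high flow, and Itga4 and Itga9 between flows with IgG. Counts of members called out of 8 changed as follows. Low flow against sham had 4, which became 2 with library totals and 0 without low-flow pools a and b, when the lone pool is assumed to vary like the sham pools. Anti-GPIba had 0, which became 3 with DESeq2, 1 without a filter (beside 2532 of 16665 genes), 3 with the replicate block (24.7% of genes) and 7 with only the groups compared. Clodronate had 0, which became 1 with DESeq2 and 0 to 1 with a replicate left out. Flow with PBS liposomes had 2, which became 0 to 1 with a replicate left out. EC-KO against control at low flow had 0, which became 0 to 2 with a replicate left out and 1 without the earlier run. Flow in controls at 7 days had 0, which became 2 with DESeq2, 3 with the replicate block, 4 without the earlier run and 0 to 4 with a replicate left out, the 4 being without control library 1. Flow in EC-KO had 0, which became 1 with the replicate block (9.86% of genes), 2 with only the groups compared (6.61%) and 2 without the earlier run (8.36%), against 1.09% as reported. With 1 library left out, the count of all genes called changed from 4499 to between 2513 and 4757 against sham, from 2216 to between 1 and 89 after anti-GPIba and from 16 to between 0 and 937 after clodronate. For flow it changed from 5422 to between 2141 and 4231 with IgG, from 4692 to between 1482 and 3839 with PBS liposomes, from 320 to between 3 and 3897 in 7 day controls and from 146 to between 1 and 15 in EC-KO. The cause of these changes was not tested. Same-numbered libraries deviated together with a correlation of −0.141 to 0.397 in the depletion set and −0.0256 to 0.209 between flows at 7 days, where the numbers were not taken to pair them. The replicate block changed no other count by over 1.5 times, with 3 calls for flow with IgG (43.4% of genes) and 3 with PBS liposomes (38.1%). No paired analysis was possible because the columns of the untreated pools carry letters. The second run of the untreated pools, the sum of both runs and the other run of 7 day libraries were not run, as those columns were not mapped to a sample. Of 112 group levels 19 moved by over 1 SD with library totals, 6 of them in untreated low-flow pools. Depth limits Itga4, Itgb3 and, in the 100 bp pools, Itga9 and Itgb5.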
